A study of Mus musculus with 19 samples.

Results

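Genes that mark the projection neurons of the direct pathway were examined in the striatum of wild-type mice and of 3 lines of Huntington's disease knock-in mice. The 8 genes were chosen as known markers of Drd1-expressing striatal neurons: Drd1, Tac1, Pdyn, Isl1, Chrm4, Sfxn1, Slc35d3 and Eya1. They are 8 of the 54232 genes in the count table and 8 of the 18521 genes that passed the filter on low counts. RNA from the dissected striatum of 19 mice aged 6 months on a C57/BL/6 background was sequenced, from 7 wild-type mice (WT) and from 4 mice each of the lines KI-FL, KI-571 and KI-96. All KI mice descend from the HD140Q knock-in, which carries an expanded polyQ repeat in the mouse Htt gene. KI-FL mice keep this allele at full length by their genotype label and the methods of the study, although their strain label carries the truncation wording of the other lines. In the KI-96 and the KI-571 line CRISPR/Cas9 cut it short in fertilised eggs, so that a mutant N-terminal fragment of huntingtin is made, the shorter one in KI-96. By the methods of the study the KI-571 line goes back to a single founder and the KI-96 line to several. According to the methods of the study the KI mice were heterozygous, so a normal allele is present in each of them, and the labels give neither sex nor sacrifice batch, so that neither could enter the fit. The mutation is in every cell of these mice, so no cell type was targeted.

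The striatum sends its output through 2 populations of GABA neurons that are mixed side by side. Direct-pathway neurons project to the output nuclei of the basal ganglia, carry D1 dopamine receptors that raise cAMP, and release substance P and dynorphin. Indirect-pathway neurons project to the external pallidum, carry D2 dopamine receptors and adenosine receptors, and release enkephalin. In Huntington's disease both populations are lost and the indirect pathway is known to be affected early.

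The libraries held 12669809 to 26388542 reads counted on genes. KI-FL replicate 4 stood apart, with 3186 of the tested genes at 0 counts against 10 to 222 in the other 18 mice. KI-96 replicate 3 had 24.2% of its reads outside annotated genes against 11.1% to 16.0% in the others. The striatal label was checked with Ppp1r1b (DARPP-32), an abundant RNA of projection neurons, which stood at 566 ± 120.0 CPM (reads scaled to the effective library size) per kb of exon (SD, n = 7) in WT mice and ranked 24 of the 17429 genes with a length. Markers of cortical excitatory neurons summed to 1033 CPM in WT replicate 3 and 417.8 CPM in KI-571 replicate 2, against 12.05 to 116.8 CPM in the other mice. Choroid plexus markers summed to 5116 CPM in KI-571 replicate 2, 5342 CPM in KI-571 replicate 4 and 3036 CPM in KI-FL replicate 1, and to 36.7 to 407.9 CPM elsewhere. Xist, the RNA of the inactive X chromosome, was high (886 to 1615 CPM) in 4 of 4 KI-96, 1 of 7 WT, 0 of 4 KI-571 and 1 of 4 KI-FL mice, so that KI-96 and a high Xist level can hardly be told apart. In bulk tissue, fewer cells of a type and less RNA per cell cannot be told apart either.

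In WT mice the receptor Drd1 was the most abundant of the 8 per length, at 66.6 ± 11.1 CPM per kb of exon (SD, n = 7). The peptide precursors followed with 54.7 ± 8.94 for Tac1 and 45.9 ± 12.1 for Pdyn on the same scale. Chrm4 stood at 40.7 ± 5.70 CPM per kb, measured over the 1.44 kb that its gene model holds in the annotation used here. In this order of Drd1, Tac1, Pdyn and Chrm4 the WT ranges of neighbours overlapped. Slc35d3 was lower, with 20.04 ± 3.19 CPM per kb, and its highest WT mouse (25.3) was below the lowest WT mouse for Chrm4 (31.4). Sfxn1 (6.44 ± 0.688) and Isl1 (5.03 ± 1.07) came next, with overlapping ranges, and Eya1 was the least abundant (0.845 ± 0.162 CPM per kb, 100 to 179 counts per WT mouse). The indirect-pathway genes Penk (552 ± 102), Adora2a (124 ± 16.8) and Drd2 (96.2 ± 18.5 CPM per kb) were each above Drd1 in the mean.

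Whether the direct-pathway genes change with the form of mutant huntingtin was asked gene by gene against WT. No member passed in any KI genotype, by the edgeR quasi-likelihood model with p-values Benjamini-Hochberg adjusted over all 18521 genes at 0.05: 0 of 8 in KI-96, 0 of 8 in KI-571 and 0 of 8 in KI-FL mice. Over all genes the share that passed was 0.027% in KI-96, 0.0324% in KI-571 and 0.194% in KI-FL mice, so that a count of 0 among 8 genes is near the background. At an unadjusted p under 0.05 the count was also 0 of 8 in each genotype, where 7.45% of all genes in KI-96, 7.72% in KI-571 and 16.7% in KI-FL mice passed. For the mean of the 3 KI genotypes the counts were 0 of 8 adjusted (0.054% of all genes) and 0 of 8 unadjusted (12.9% of all genes). With DESeq2 in place of edgeR 0 of 8 passed in each comparison as well. The 4 KI mice of a genotype lay wholly above or below the 7 WT mice for 0 of the 8 genes in each of the KI genotypes, where 1.24%, 1.55% and 5.29% of all genes did so in the KI-96, the KI-571 and the KI-FL mice. The 3 comparisons use the same WT mice. The 95% intervals given with each gene show what size of change these mice allow.

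**Figure D1:**
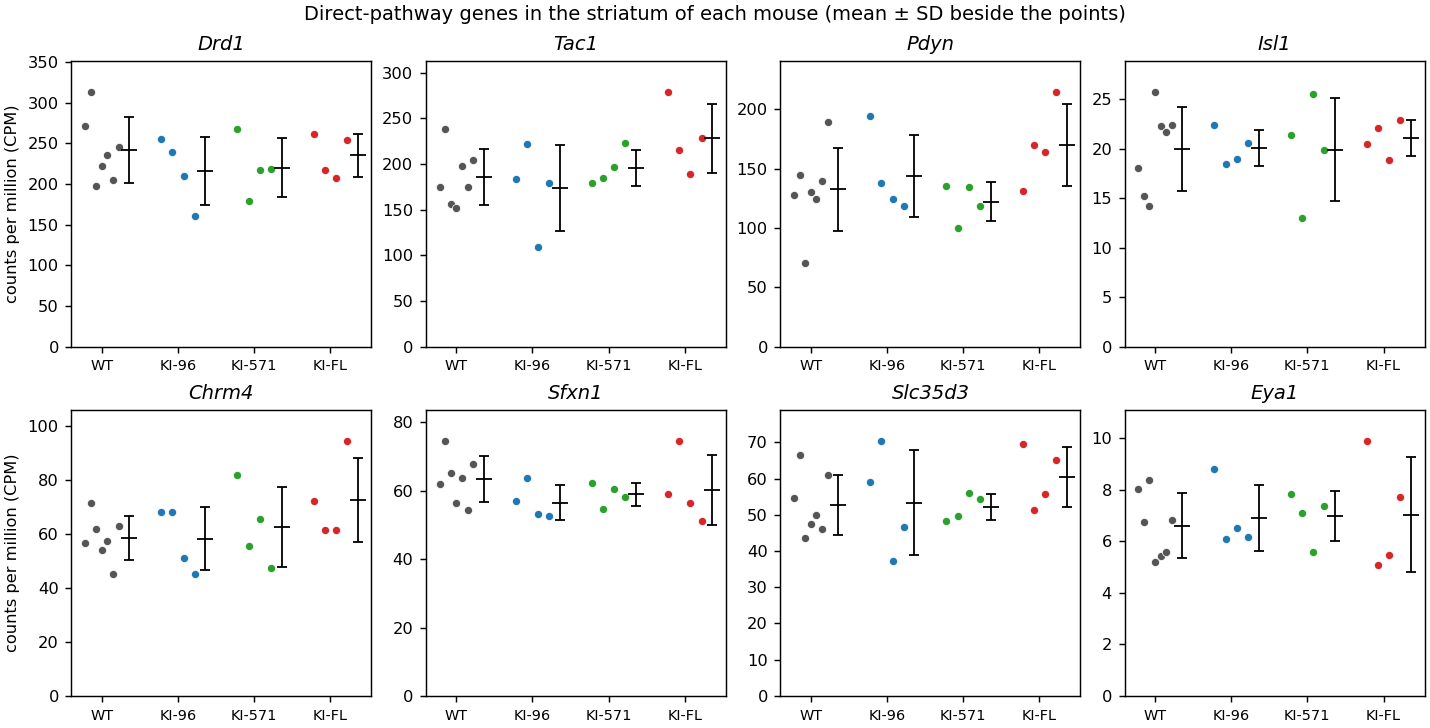
CPM (y axis, from 0) of each direct-pathway gene in each mouse, grouped by genotype (x axis), with the mean and SD beside the points (n = 7 WT, 4 in each KI genotype). Every gene has KI and WT mice at the same levels, and the lowest Pdyn value, 70.5 CPM, belongs to WT replicate 3.

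Among the receptors, Drd1, the D1 dopamine receptor (ENSMUSG00000021478.6, GRCm38 chromosome 13 from 54051183 to 54055705, minus strand, 3 exon blocks), was at 198 to 314 CPM in WT mice with a median of 236 CPM. KI-96 mice had 256, 239, 210 and 161 CPM. KI-571 mice had 268, 179, 217 and 218 CPM, and KI-FL mice 262, 218, 208 and 255 CPM. Most KI mice lay inside the WT range; KI-96 replicate 4 and KI-571 replicate 2 were the 2 mice below it. The log2 fold change was -0.16 (95% interval -0.45 to 0.13) in KI-96, -0.13 (-0.42 to 0.15) in KI-571 and -0.04 (-0.32 to 0.25) in KI-FL mice, and the intervals reach at most a fall to 0.733-fold and a rise to 1.19-fold. The means of the 4 genotypes ranked from high to low as WT, KI-FL, KI-571 and KI-96, with neighbours overlapping throughout.

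Chrm4, the M4 muscarinic receptor (ENSMUSG00000040495.4, chromosome 2 from 91927249 to 91928688), couples to an inhibitory G protein and counters D1 signalling in the same cells. It was at 45.2 to 71.7 CPM in WT mice with a median of 57.6 CPM. KI-FL mice had 72.4, 61.6, 61.7 and 94.6 CPM. Replicate 4, the library with many genes at 0, was the highest of all 19 mice, and replicate 1 was just above the highest WT mouse. The log2 fold change in KI-FL mice was 0.31 (95% interval -0.01 to 0.63, adjusted p = 0.314 from the edgeR quasi-likelihood model, Benjamini-Hochberg adjusted). With single mice left out it ranged from 0.15 (without KI-FL replicate 4) to 0.38 (without KI-FL replicate 2). In KI-96 mice (45.3 to 68.3 CPM) and KI-571 mice (47.5 to 81.9 CPM) the log2 fold change was -0.01 and 0.10.

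Of the neuropeptide genes, Tac1 (ENSMUSG00000061762.12, chromosome 6 from 7554879 to 7565834, plus strand, 9 exon blocks) encodes the precursor of substance P and neurokinin A. WT mice had 152 to 239 CPM with a median of 175 CPM. KI-96 mice had 184, 222, 109 and 180 CPM, and KI-571 mice 179, 184, 197 and 223 CPM. KI-FL mice had 279, 216, 189 and 229 CPM, all above the WT median, with 1 mouse above the highest WT mouse. All KI-571 mice, and all KI-96 mice but replicate 3, were above the WT median too. KI-96 replicate 3 was the lowest of the 19 mice, and it is the library with the most reads outside genes. The log2 fold change was -0.10 (95% interval -0.42 to 0.22) in KI-96, 0.08 (-0.24 to 0.39) in KI-571 and 0.30 (-0.02 to 0.61) in KI-FL mice, for which the adjusted p was 0.325 from the edgeR quasi-likelihood model, Benjamini-Hochberg adjusted. Over the single mice left out, the value in KI-FL mice ranged from 0.17 (without KI-FL replicate 1) to 0.37 (without KI-FL replicate 3).

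Pdyn (ENSMUSG00000027400.11, chromosome 2 from 129686565 to 129699844, minus strand, 5 exon blocks) encodes prodynorphin, from which the kappa opioid peptides are cut. WT replicate 3 had 70.5 CPM, and the other 6 WT mice 125 to 189 CPM. KI-96 mice had 195, 138, 124 and 119 CPM, and KI-571 mice 135, 100.1, 134 and 119 CPM. KI-FL mice had 131, 170, 164 and 215 CPM, where again replicate 4 was the highest of all mice. The log2 fold change was 0.12 (95% interval -0.27 to 0.50) in KI-96, -0.12 (-0.51 to 0.27) in KI-571 and 0.36 (-0.02 to 0.74) in KI-FL mice, with an adjusted p of 0.328 in the last from the edgeR quasi-likelihood model, Benjamini-Hochberg adjusted. With WT replicate 3 and KI-FL replicate 4 both left out, the value in KI-FL mice was 0.11. Leaving out single mice gave 0.23 (without KI-FL replicate 4) to 0.46 (without WT replicate 7). Against WT replicates 1 to 4 alone it was 0.51. Pdyn varied most of the 8 genes between mice of a genotype, with an SD of 0.35 on the log2 scale, above that of 96.1% of the 926 genes at a like level.

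The transcription factor Isl1 (ENSMUSG00000042258.13, chromosome 13 from 116298281 to 116309689), which directs direct-pathway neurons during development, was in WT mice at 19.9 ± 4.23 CPM (SD, n = 7) and at 20.1 ± 1.78, 19.9 ± 5.17 and 21.1 ± 1.79 CPM (SD, n = 4 each) in the KI-96, the KI-571 and the KI-FL mice. The means differed from each other by less than these SDs. Cholinergic interneurons use Isl1 and Chrm4 too; their enzyme Chat was at 31.2 ± 3.74 CPM in WT, 28.4 ± 4.90 in KI-96, 25.3 ± 5.29 in KI-571 and 30.0 ± 2.99 CPM in KI-FL mice. Slc18a3, their vesicular transporter gene, was at 0.55 in log2 fold change in KI-FL mice, and at 0.22 without KI-FL replicate 4. None of the 5 cholinergic markers passed the adjusted threshold against WT in a KI genotype, with medians of 0.073 in KI-96, -0.15 in KI-571 and 0.039 in KI-FL mice, and 5 of 5 were lower in KI-571 mice, 2 of them at an unadjusted p under 0.05. Their part in the values of Isl1 and Chrm4 was not tested. Eya1 (ENSMUSG00000025932.14, chromosome 1 from 14168954 to 14310235), a transcriptional coactivator with phosphatase activity, was at 6.60 ± 1.27 CPM in WT mice and between 6.89 and 7.03 CPM in the means of the KI genotypes. Its 95% intervals were among the widest, from -0.35 to 0.48 on the log2 scale in KI-96 and from -0.32 to 0.51 in KI-FL mice.

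Sfxn1 (ENSMUSG00000021474.9, chromosome 13 from 54071869 to 54108342), a mitochondrial serine transporter, lies near Drd1 on chromosome 13, on the opposite strand. It varied least between mice of a genotype (SD 0.16 on the log2 scale), and was at 63.4 ± 6.77 CPM in WT, 56.5 ± 5.13 in KI-96, 58.9 ± 3.27 in KI-571 and 60.2 ± 10.1 CPM in KI-FL mice. Like Drd1 it had its highest mean in WT mice, and its log2 fold changes were -0.17, -0.11 and -0.07 in the KI-96, the KI-571 and the KI-FL mice. Slc35d3 (ENSMUSG00000050473.5, chromosome 10 from 19847916 to 19851459), a nucleotide sugar transporter family protein with a known part in the trafficking of D1 receptors, was at 43.6 to 66.4 CPM in WT mice with a median of 49.9 CPM. KI-96 mice had 58.9, 70.4, 37.3 and 46.7 CPM and KI-571 mice 48.3, 49.8, 56.1 and 54.4 CPM. KI-FL mice had 69.6, 51.3, 55.7 and 65.1 CPM, all above the WT median. The log2 fold changes were 0.02 (95% interval -0.28 to 0.31), -0.02 (-0.31 to 0.28) and 0.20 (-0.10 to 0.49) in the same order of genotypes.

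**Figure D2:**
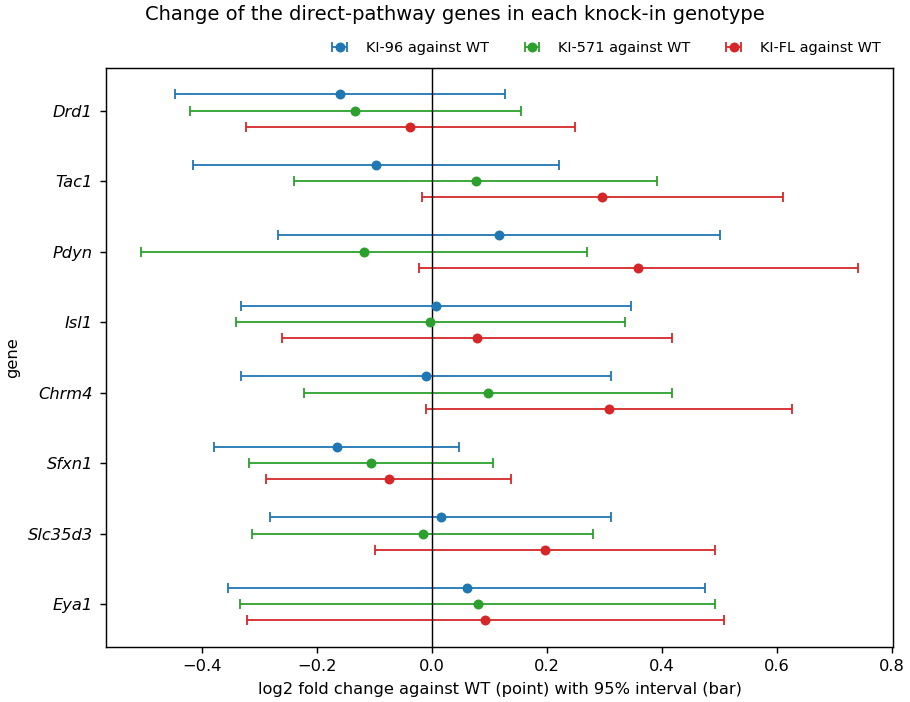
Log2 fold change against WT (x axis, point) with its 95% interval (bar) for each gene (y axis) in the 3 KI genotypes, from the edgeR model of all 19 mice. All 24 intervals include 0, and those of Chrm4, Tac1 and Pdyn in KI-FL mice reach just below it (-0.01, -0.02 and -0.02).

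As a group the 8 genes had a median log2 fold change of -0.0012 in KI-96 and -0.0090 in KI-571 mice, beside -0.015 and -0.0089 for all genes tested. In KI-FL mice the median was 0.15, with 6 of 8 genes higher, beside -0.028 for all genes, of which 46.1% were higher. Without KI-FL replicate 4 and WT replicate 3 the median in KI-FL mice was 0.11, and over the single mice left out it ranged from 0.094 without KI-FL replicate 1 to 0.24 without KI-FL replicate 2. In WT mice alone the median deviation of the 8 genes had an SD of 0.18 on the log2 scale between mice. KI-FL mice had the highest mean of the 4 genotypes for 6 of the 8 genes, all but Drd1 and Sfxn1, and no genotype was separated from its neighbour in the order of means for any gene.

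The KI genotypes were also compared with each other, by contrasts that leave out the WT means within the same fit of all 19 mice. Again 0 of 8 members passed in each comparison (the edgeR quasi-likelihood model, Benjamini-Hochberg adjusted), where 0% of all genes passed between KI-96 and KI-FL, 0.0864% between KI-571 and KI-FL and 0.0054% between both truncated lines. At an unadjusted p under 0.05, 1 of 8 was found between KI-96 and KI-FL (8.9% of all genes), 1 of 8 between KI-571 and KI-FL (8.9% of all genes) and 0 of 8 between the KI-96 and the KI-571 line (5.51% of all genes). These counts are near or at the background share. The first was Tac1, which was 0.39 lower on the log2 scale in KI-96 than in KI-FL mice (value -0.39, 95% interval -0.75 to -0.04, adjusted p = 0.543 by the same edgeR test). Without KI-96 replicate 3, the lowest in Tac1, this difference was -0.22. The second was Pdyn, with a log2 difference of -0.48 between KI-571 and KI-FL mice (95% interval -0.91 to -0.04, adjusted p = 0.520 by the same edgeR test). All 8 genes had a lower fitted level in both truncated lines than in KI-FL mice, with medians of -0.15 in each comparison beside 0.017 for all genes. Over all genes 52.7% were higher in KI-96 and 52.8% in KI-571 than in KI-FL mice. Other genes enriched in direct-pathway neurons (Ebf1, Foxp2, Zfp521 and Tshz1) did not share this direction. Against KI-FL mice 4 of these 4 were higher in KI-96 (median 0.25) and 2 of 4 in KI-571 mice (median -0.072). Other lists shared the direction in part. Of 5 tested indirect-pathway genes, 5 were lower in KI-96 (median -0.10) but 5 were higher in KI-571 mice (0.11). Of 13 genes shared by both kinds of projection neuron, 10 were lower in KI-96 (-0.12) and 8 in KI-571 mice (-0.022). Of 7 genes of D1 receptor signalling 5 and 7 were lower, and of 6 genes that process neuropeptides 6 and 5. Both comparisons rest on the same 4 KI-FL mice, and replicate 4 is among them.

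A direct-pathway gene was then set against its indirect-pathway counterpart within the same mouse, by the log2 ratio of their counts, which does not depend on library size. The ratio of Tac1 to Penk compares substance P with enkephalin precursor RNA. On a linear scale it was 0.176 to 0.235 in WT mice with a median of 0.216. In KI-FL mice it was 0.388, 0.274, 0.255 and 0.312, so that 4 of 4 mice were above every WT mouse. Such a separation was not rare in this comparison: 5.29% of all single genes lay wholly above or below WT in KI-FL mice. The share among ratios of other genes was not tested. On the log2 scale the difference was 0.55, a 1.47-fold higher ratio (two-sided exact permutation test over 330 splits, p = 0.00303, the smallest that 4 mice against 7 allow; adjusted over the 6 tests of both ratios, 0.0182). Leaving out each mouse in turn gave 0.43 to 0.64, the lowest value without KI-FL replicate 1, the mouse with the choroid plexus markers.

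In KI-96 mice the Tac1 to Penk ratio was 0.226, 0.225, 0.326 and 0.284, with 4 of 4 above the WT mean. The log2 difference was 0.34 (two-sided exact permutation p = 0.0182, adjusted over the 6 tests 0.0364). The highest of these values came from KI-96 replicate 3, and without that mouse the difference was 0.24 (exact permutation p = 0.1), and without KI-96 replicate 4 it was 0.30 (exact permutation p = 0.0750). In KI-571 mice the ratio was 0.221, 0.274, 0.225 and 0.261, again 4 of 4 above the WT mean. The log2 difference of 0.24 did not pass (exact permutation p = 0.0515, adjusted over the 6 tests 0.0773). Without WT replicate 1, 2 or 7 the exact permutation p was 0.0476, 0.00952 or 0.0476. Over every single mouse left out it ranged from 0.00952 to 0.108. Against WT replicates 1 to 4 alone it was 0.114. Whether the genotypes differ from each other in this ratio was not tested, and the 3 tests share the WT mice.

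Neither gene of the ratio passed by itself. Penk (ENSMUSG00000045573.9, chromosome 4 from 4133531 to 4138819) had a median of 917 CPM in WT mice (lowest 715, highest 1165 CPM). KI-FL mice had 719, 790, 741 and 734 CPM of Penk, and KI-96 mice 815, 989, 335 and 633 CPM. The log2 fold change of Penk was -0.38 in KI-96, -0.17 in KI-571 and -0.27 in KI-FL mice (adjusted p = 0.689, 0.951 and 0.483 from the edgeR quasi-likelihood model, Benjamini-Hochberg adjusted), while that of Tac1 was -0.10, 0.08 and 0.30. Penk shares 233 exonic bases with A830012C17Rik on the opposite strand, and the strand setting of the counting is not given in the sources used here, so reads of the 2 genes may not be separated.

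**Figure D3:**
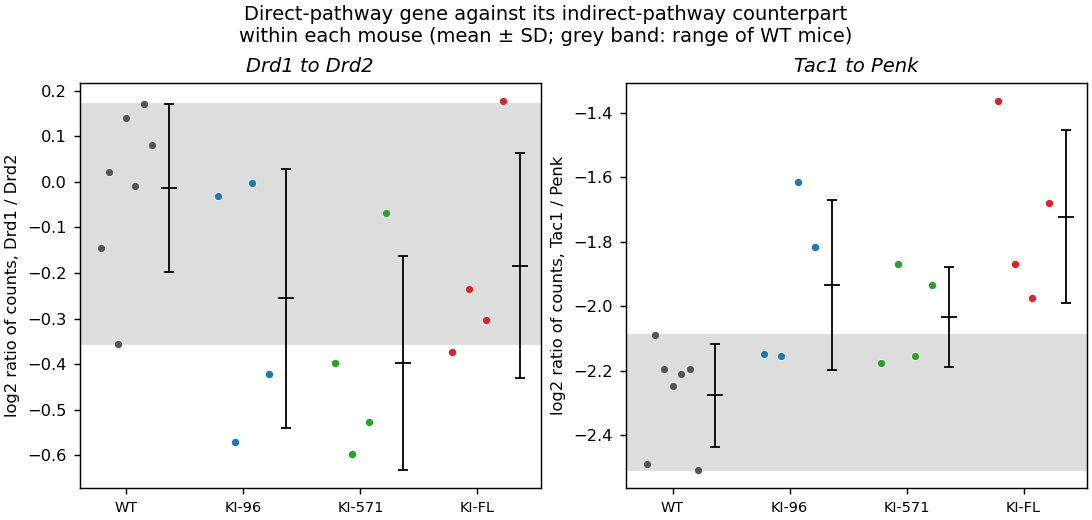
Log2 ratio of counts (y axis) of Drd1 to Drd2 (left) and Tac1 to Penk (right) in each mouse by genotype (x axis), with mean and SD beside the points and the range of the 7 WT mice as a grey band. For Tac1 to Penk the 4 KI-FL mice lie above the band, between -1.97 and -1.37, while for Drd1 to Drd2 3 of 4 KI-571 mice lie below it.

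The ratio of Drd1 to Drd2 compares the receptors through which dopamine excites one population and inhibits the other. In each KI genotype its mean log2 difference from WT was negative, while that of Tac1 to Penk was positive. The ratios thus shifted in opposite directions and give no single direction for the direct against the indirect pathway. Drd1 to Drd2 was 0.781 to 1.13 in WT mice with a median of 1.02. In KI-571 mice it was 0.759, 0.661, 0.694 and 0.953, with 4 of 4 below the WT mean and 3 of 4 below every WT mouse. The lowest, 0.661, was in KI-571 replicate 2, which had high cortical and choroid plexus markers. The highest, 0.953, was in replicate 4, which had high choroid plexus markers. The part of these markers in the ratio was not tested. The log2 difference was -0.38, a ratio 0.766 times that of WT mice (two-sided exact permutation p = 0.0182, adjusted over the 6 tests 0.0364). Against WT replicates 1 to 4 alone it was -0.31 (exact permutation p = 0.114). With each mouse left out in turn it ranged from -0.49 without KI-571 replicate 4 to -0.32 without KI-571 replicate 2 (exact permutation p = 0.00833 to 0.0417). In that genotype Drd1 was at -0.13 and Drd2 at 0.25 in log2 fold change, and neither passed (adjusted p = 0.938 and 0.811 from the edgeR quasi-likelihood model, Benjamini-Hochberg adjusted).

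KI-96 mice had Drd1 to Drd2 ratios of 0.979, 0.673, 0.999 and 0.747, and KI-FL mice 0.772, 0.850, 0.810 and 1.13. The log2 differences were -0.24 (exact permutation p = 0.121, adjusted 0.145) and -0.17 (exact permutation p = 0.209, adjusted 0.209), and 3 of 4 mice were below the WT mean in each genotype. These 2 results turn on single mice. Without WT replicate 3, which had the lowest WT ratio and the most cortical marker RNA, the difference in KI-96 mice was -0.30 (exact permutation p = 0.0381), and without KI-96 replicate 3 it was -0.33 (exact permutation p = 0.0417). Without KI-FL replicate 4, the mouse with 3186 tested genes at 0, the difference in KI-FL mice was -0.29 (exact permutation p = 0.0417). Leaving out other mice made the differences smaller, at -0.14 without KI-96 replicate 2 and -0.11 without KI-FL replicate 1. Over every single mouse left out the exact permutation p ranged from 0.0381 to 0.358 in KI-96 and from 0.0417 to 0.458 in KI-FL mice. With both WT replicate 3 and KI-FL replicate 4 left out, the differences were -0.30 in KI-96, -0.44 in KI-571 and -0.35 in KI-FL mice (exact permutation p = 0.0381, 0.00952 and 0.0119, not adjusted). That setting was added after seeing the data. It leaves out the lowest WT and the highest KI-FL ratio, which can only lower the differences, so no conclusion is drawn from it. For KI-96 mice it repeats the value without WT replicate 3.

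Since Xist differed between the genotypes, the ratios were also compared among mice with low Xist alone. There the Tac1 to Penk difference was 0.57 in 3 KI-FL mice (exact permutation p = 0.0119, the smallest that 3 mice against 6 allow) and 0.21 in 4 KI-571 mice (exact permutation p = 0.0476), each against 6 WT mice. All KI-571 mice had low Xist, so for them this only leaves out WT replicate 1 and repeats the value given above. The setting was added after seeing the data, and its p-values are not adjusted. The Drd1 to Drd2 difference among them was -0.41 in KI-571 mice (exact permutation p = 0.0190) and -0.18 in KI-FL mice (exact permutation p = 0.393). KI-96 mice could not be compared in this way, since 0 of 4 had low Xist.

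Across the 19 mice the 8 genes varied together in part. Of the 28 pairs, 24 had a positive Pearson correlation of log2 CPM, with a median r of 0.35 (range -0.32 to 0.86), and the median was 0.32 after the genotype means were subtracted. Of these, 4 passed a permutation test with Benjamini-Hochberg adjustment over the 28 pairs, and all values of a mouse share its library and dissection. The closest pair was Tac1 and Slc35d3 (r = 0.86, Spearman rho = 0.81, permutation p = 1e-05, the smallest that 100000 permutations give, adjusted 0.00028), and r was 0.77 without the 2 mice farthest in Tac1 and 0.87 within genotypes. Drd1 went with Chrm4 (r = 0.65, rho = 0.65, adjusted permutation p = 0.0364), with r at 0.57 without the 2 mice farthest in Drd1. The other 2 pairs, Drd1 with Slc35d3 (r = 0.59, rho = 0.63) and Chrm4 with Slc35d3 (r = 0.60, rho = 0.70), had an adjusted permutation p of 0.0482 each and did not pass without KI-FL replicate 4 and WT replicate 3, where their r was 0.55 and 0.60 over the 17 mice. The lowest r, -0.32, was between Isl1 and Eya1. The highest r of Isl1 was with Pdyn (r = 0.58, adjusted permutation p = 0.0588).

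**Figure D4:**
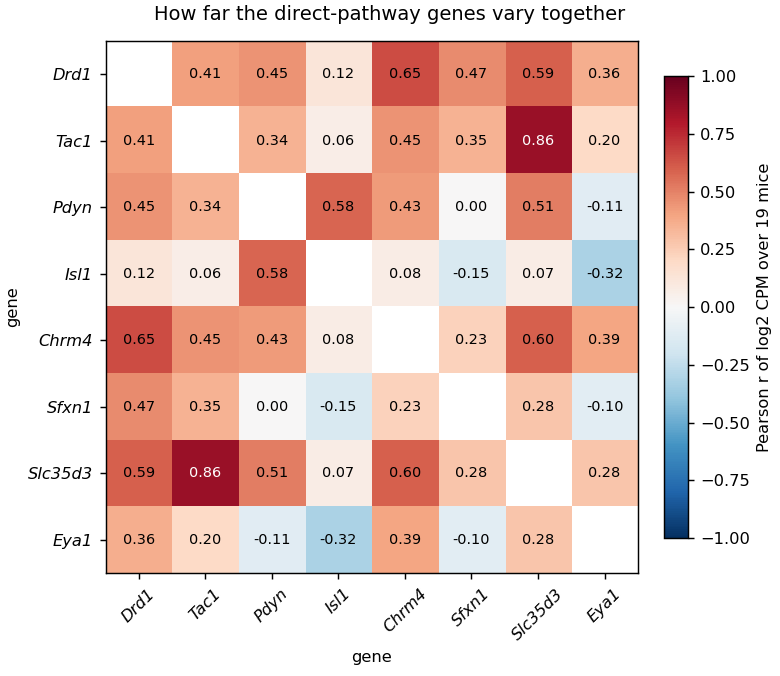
Pearson r of log2 CPM over 19 mice for each pair of direct-pathway genes (both axes), coloured from -1 (blue) to 1 (red). Tac1 with Slc35d3 is the highest pair at 0.86, and Isl1 lies between -0.32 and 0.12 with every gene but Pdyn (0.58).

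The bases before the transcription starts of the most correlated pair are shown because D1 receptors act through cAMP, whose response element holds the letters TGACG. They are from RefSeq on GRCm38.p6, cut where an exon annotated in the mouse GENCODE release M21 begins, with TGACG on either strand in capitals. The Tac1 stretch is chr6:7554811-7554878 on the plus strand and the Slc35d3 stretch is chr10:19851460-19851709 on the minus strand.
Tac1: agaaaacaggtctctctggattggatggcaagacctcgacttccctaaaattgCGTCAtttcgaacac
Slc35d3: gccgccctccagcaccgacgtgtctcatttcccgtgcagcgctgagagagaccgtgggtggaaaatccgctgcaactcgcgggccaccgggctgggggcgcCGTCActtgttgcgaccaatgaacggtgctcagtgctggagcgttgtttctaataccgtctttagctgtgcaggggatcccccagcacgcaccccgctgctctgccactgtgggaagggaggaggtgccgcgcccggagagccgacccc
In the whole 250 bases before a start, TGACG on either strand was found 2 times for Tac1, 1 time for Slc35d3 and 2 times for Isl1. It was not found in the windows of Drd1, Pdyn, Chrm4 and Sfxn1. It was in 17.8% of all 32851 windows, and the full palindrome TGACGTCA, which contains it on both strands, was in 1.55% of all windows and in 0 of the 9 windows of the 7 genes that matched. These are matches of letters, not binding sites.

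The genes most like the mean of the 8 across the 19 mice, by Pearson r of log2 CPM with the mean of their z-scores, were Mpped2 (r = 0.87), Cdk17 (0.86), Ncbp1 (0.86), Slmap (0.85) and Tmem158 (0.84). Of the lists described next, Prkar2b, a regulatory subunit of protein kinase A, came closest with r = 0.83 at rank 6 of all genes, and was chosen after its values were seen. These are descriptions over 19 mice that share libraries and dissection.

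Other genes of the direct pathway and of the steps before and after its receptors were counted list by list, each against WT. None of them passed the adjusted threshold in any KI genotype (the edgeR quasi-likelihood model, Benjamini-Hochberg adjusted). Of 4 other genes enriched in direct-pathway neurons (Ebf1, Foxp2, Zfp521 and Tshz1), 4 were higher in KI-96, 2 in KI-571 and 3 in KI-FL mice, with medians of 0.21, 0.020 and 0.12. Tshz1, a zinc finger factor, had a log2 fold change of 0.62 in KI-96 mice (adjusted p = 0.552 by the same edgeR test), which was 0.18 without KI-96 replicate 3, the mouse with its highest level (138 CPM). Zfp521 was at 0.24 in KI-96 mice, and at 0.14 without KI-96 replicate 1. Without KI-96 replicate 3 the median of these 4 genes in KI-96 mice was 0.068. Of 7 genes that carry the D1 signal to cAMP and protein kinase A, 6 were higher in KI-96, 4 in KI-571 and 7 in KI-FL mice, with medians of 0.10, 0.11 and 0.16. The 2 with the smallest p over all KI mice were Gnb1, a G protein beta subunit (0.27, adjusted p = 0.305), and Gnal, the alpha subunit that couples D1 receptors (0.23, adjusted p = 0.344, both by the same edgeR test).

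Of 6 genes that process neuropeptides, 2 were higher in KI-96, 5 in KI-571 and 5 in KI-FL mice, with medians of -0.05, 0.042 and 0.18. Pam, which amidates peptides such as substance P, was at 0.39 in KI-FL mice (adjusted p = 0.167 from the edgeR quasi-likelihood model, Benjamini-Hochberg adjusted), and the convertase gene Pcsk1 at 0.27, or 0.13 without KI-FL replicate 1. Of 5 tested receptors of these peptides, 3, 1 and 2 were higher in the KI-96, the KI-571 and the KI-FL mice, with medians of 0.024, -0.14 and -0.0050. The substance P receptor gene Tacr1 was at 0.36 in KI-FL mice (adjusted p = 0.184 by the same edgeR test) and the dynorphin receptor gene Oprk1 at -0.32 in KI-96 mice (adjusted p = 0.739 by the same edgeR test), with a range from -0.50 without KI-96 replicate 3 to -0.14 without KI-96 replicate 4.

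For comparison, the 5 tested indirect-pathway genes had medians of -0.11, 0.12 and 0.034 in the KI-96, the KI-571 and the KI-FL mice, with 2, 4 and 3 of 5 higher. Among them Drd2 was at 245 ± 47.0 CPM in WT mice (SD, n = 7) and at 260 ± 67.4, 291 ± 53.4 and 269 ± 48.7 CPM in the KI genotypes (SD, n = 4 each, same order). Adora2a was at 378 ± 51.6 CPM in WT mice and at 350 ± 102, 410 ± 82.9 and 376 ± 65.7 CPM in the KI genotypes. The 13 genes shared by both kinds of projection neuron had medians of 0.014, 0.054 and 0.13, with 7, 10 and 9 of 13 higher, and without KI-FL replicate 1 the medians of the 2 lists in KI-FL mice were -0.062 and 0.015. The smallest p over all KI mice among the shared genes belonged to Rasd2 (log2 fold change 0.26, adjusted p = 0.401) and Bcl11b (0.20, adjusted p = 0.467, both from the edgeR quasi-likelihood model, Benjamini-Hochberg adjusted). None of these 18 genes passed in a KI genotype.

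Markers of other cells differed between mice and genotypes beside these values, and their part in them was not tested. Cortical markers had a median log2 fold change of -1.99 in KI-96, -0.18 in KI-571 and -1.64 in KI-FL mice, which rested on WT replicate 3: without it they were -0.089, 2.05 and 0.014. Choroid plexus markers were at -0.68, 3.69 and 1.96, with 6 of 6 higher at an unadjusted p under 0.05 in KI-571 mice. Without KI-571 replicates 2 and 4 and KI-FL replicate 1 the choroid plexus values were -0.72, 0.34 and -0.42, so that the KI-FL value turned. Markers of thalamus and habenula were at 0.995 (0.25 without KI-96 replicate 4), 0.12 and -0.20, astrocytes at -0.09, -0.15 and -0.37, oligodendrocytes at -0.12, -0.10 and -0.25 (4, 4 and 5 of 5 lower), microglia at 0.09, 0.16 and 0.13, blood vessel cells at 0.24, 0.13 and 0.033, and pallidum and septum at 0.060, -0.13 and -0.060 in the same order. None of these markers passed the adjusted threshold against WT. Apart from the oligodendrocyte list, the genes with the smallest p over all KI mice were Tbr1 and Emx1, Aqp1 and Clic6, Lef1 and Tcf7l2, Gja1 and Aqp4, P2ry12 and Cx3cr1, Flt1 and Rgs5, and Nkx2-1 and Zic1.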

How the data were processed

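Striatal RNA of 19 mice was sequenced, and the counts that the authors deposited are whole reads per gene without normalization. According to the methods of the study, adapters were trimmed with BBduk, reads were aligned to GRCm38 with STAR and counted with HTSeq. Tool versions, annotation and strand setting are not given in the sources used here. A table of the whole series was used, with 4 columns that belong to none of the 19 mice left out, and its 5 HTSeq summary lines (20.8% to 32.8% of reads) were not treated as genes. Of 54232 identifiers, 54079 were matched to symbols. Positions and exon lengths are from the mouse GENCODE release M21 on the same build.

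The members and gene lists were chosen with earlier results of these data known. Groups and replicate numbers came from the labels. The study left out a WT sample as a possible outlier and fitted a sacrifice batch, and the labels identify neither, so all 7 WT mice were kept and no batch was fitted. The reporting summary of the study calls the animals of each experiment littermates, and the labels give neither litter nor batch. The p-values treat the mice as independent, and the part of litter or batch in them was not tested.

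Counts were filtered with filterByExpr (minimum count 10, minimum total 15), scaled by TMM and modelled for all 19 mice together, by genotype, in edgeR 4.0.16 (R 4.3.3) (biological coefficient of variation 0.240). Quasi-likelihood tests were adjusted by Benjamini-Hochberg over all 18521 genes with a threshold of 0.05, and 95% intervals use the same model. CPM are TMM-scaled, and log2 CPM had a prior count of 2. Ratios of 2 counts in a mouse, with 0.5 added to each, were compared by exact permutation tests, and pairs of genes by 100000 permutations. A group at no more than 3 counts would lie at the floor of 0.114 to 0.237 CPM, and none of the 8 genes did. No pair of mice was a repeat of the same library: the chi-square of same-genotype mice was at least 8.56 per degree of freedom. The script was tested on simulated counts.

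Every member was reported, with Drd2, Penk and Adora2a. From the other lists of pathway genes the 2 with the smallest unadjusted p over all KI mice were named. Those of the oligodendrocyte list are not reported here. The lists held cholinergic, cortical, choroid plexus, astrocyte, oligodendrocyte, microglia, blood vessel, thalamus and habenula, and pallidum and septum markers. Gpr52 was not analysed here, and Tacr2, Neurod1 and Pou4f1 were not tested because of low counts. Alternatives were DESeq2 1.42.0, its size factors, other filters, a threshold of 0.1, the compared groups alone, Xist or a surrogate variable from sva 3.50.0 as covariate, WT replicates 1 to 4 alone, the replicate number as a block, and each mouse left out. Leaving out both KI-FL replicate 4 and WT replicate 3 in the fits and ratios, mice with Xist under 10 CPM alone in the ratios, and leaving out KI-571 replicates 2 and 4 and KI-FL replicate 1 in the fits, were added after seeing the data.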

Additional observations from a re-analysis of the deposited data

Results flagged for a closer look

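Pdyn in WT replicate 3 lay at 6.14 log2 CPM, apart from the other 6 WT mice at 6.97 to 7.57, by Dixon's criterion for a single low value. It was 1 of 40 groups of mice that were looked at in this way, where chance flags about 1 in 20 groups, or 2 here. The same mouse had the most cortical marker RNA, and what part that has in its Pdyn value was not tested.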

How the results depend on the processing

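The count of members that passed stayed at 0 of 8 in all 7 comparisons under every alternative run, the lowest adjusted p of a member being 0.215 (Chrm4, KI-FL against WT, the compared groups alone, edgeR quasi-likelihood model, Benjamini-Hochberg adjusted). The count over all genes was less steady: 0 to 28 passed in KI-96, 0 to 115 in KI-571 and 0 to 509 in KI-FL mice against WT, 0 to 285 for the mean of the KI genotypes, 0 to 38 between KI-96 and KI-FL, 0 to 88 between KI-571 and KI-FL and 0 to 35 between KI-96 and KI-571, each at its highest with DESeq2.

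Fold changes of single genes near 0 changed sign in 29 of 344 values from other settings and in 34 of 608 from leaving out a mouse, and the cause was not tested. With DESeq2 Isl1 in KI-571 mice was at 0.0045 and with its size factors at 0.0046, and without the filter on low counts Isl1 in KI-96 mice was at -0.0062. With Xist as a covariate Tac1 and Chrm4 in KI-96 mice were at 0.045 and 0.16, and with a surrogate variable Sfxn1 in KI-FL mice was at 0.0043. Against WT replicates 1 to 4 alone Eya1 was at -0.043 in KI-96, -0.021 in KI-571, -0.018 in KI-FL and -0.027 in all KI mice, and in KI-571 mice Pdyn was at 0.048 and Isl1 at 0.12. Without KI-FL replicate 4 and WT replicate 3, in KI-96 mice Isl1 was at -0.058, Chrm4 at 0.0022 and Slc35d3 at -0.027, Isl1 was at -0.038 in KI-FL mice, and in all KI mice Pdyn was at -0.037 and Isl1 at -0.056.

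Without the 3 mice with high choroid plexus markers, in KI-571 mice Pdyn was at 0.020 and Isl1 at 0.22, and Eya1 was at -0.13 in KI-FL and -0.018 in all KI mice. The replicate numbers did not pair the mice: the deviations of same-numbered mice correlated at -0.128 to 0.290, over 0.1 in 5 of 24 pairs. With the replicate block, Slc35d3 and Eya1 in KI-96 mice were at -0.0019 and -0.055, Pdyn, Isl1 and Eya1 in KI-571 mice at 0.071, 0.13 and -0.025, and Eya1 at -0.040 in KI-FL and -0.040 in all KI mice. The blocked ratios, with 4 pairs and an exact sign-flip test that cannot go below 0.125, were -0.31 for Drd1 to Drd2 in KI-571 mice (exact p = 0.125), and for Tac1 to Penk 0.32 in KI-96 (exact p = 0.25) and 0.53 with KI-FL (exact p = 0.125).

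Against WT replicates 1 to 4 alone the ratio of Drd1 to Drd2 in KI-571 mice was -0.31 and that of Tac1 to Penk in KI-96 mice 0.32 (exact permutation p = 0.114 each). Without KI-FL replicate 4 and WT replicate 3, Drd1 to Drd2 was -0.30 in KI-96 and -0.35 in KI-FL mice, and 2 of 28 pairs of genes passed, as also 2 with DESeq2 size factors. Among mice with low Xist, Tac1 to Penk in KI-571 mice was 0.21. With each mouse left out, Drd1 to Drd2 ranged from -0.33 to -0.14 in KI-96 and from -0.29 to -0.11 in KI-FL mice, and Tac1 to Penk from 0.24 to 0.42 in KI-96 and from 0.19 to 0.29 in KI-571 mice. The fold changes that changed sign ranged in KI-96 mice from -0.24 to 0.068 for Tac1, -0.063 to 0.22 for Pdyn, -0.060 to 0.076 for Isl1, -0.097 to 0.093 for Chrm4, -0.15 to 0.15 for Slc35d3 and -0.077 to 0.12 for Eya1. They ranged in KI-571 mice from -0.14 to 0.15 for Isl1, -0.060 to 0.21 for Chrm4 and -0.055 to 0.048 for Slc35d3, in KI-FL mice from -0.10 to 0.036 for Drd1 and -0.13 to 0.22 for Eya1, and in all KI mice from -0.042 to 0.095 for Isl1.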
